A study of Caenorhabditis elegans with 2 samples.

Results

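The genes described here are 36 pan-neuronal and synaptic vesicle genes of Caenorhabditis elegans, among 19973 protein-coding nuclear genes. They were taken by name from a list drawn up with results of these data known. Binding of the T-box transcription factor MAB-9 at them was read from peak lists of chromatin immunoprecipitation followed by sequencing. The only group holds 2 biological replicates of strain RW12257, collected as whole L1 larvae. CRISPR had put TY1, EGFP and 3xFLAG tags into mab-9 at its own locus. The larvae were starved after bleaching and harvested at 6 hours, and tagged protein was precipitated with an antibody against GFP. Each gene was given its strongest peak summit from 2000 bp upstream of its first annotated start to its end. Summits came from the authors' conservative list of 1431 peaks, called the main list, from the other pooled list of 1492 peaks, and from each replicate's own lists. A peak's signal is the value that the authors' peak caller gave it, on a scale not stated. Values of the replicates are set side by side as deposited, each from its own ranked list, and these lists had median signals of 14.7 in replicate 1 and 12.4 in replicate 2. A gap between replicates can therefore include a difference in scale between their lists. Depth is unknown because the files used here hold no read counts. Since whole larvae were used, the cells in which a site was bound cannot be told apart.

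Neurons share genes for the machinery of neurotransmitter and neuropeptide release, and many but not all of these are used little in other tissues. A synaptic vesicle is carried to the axon terminal by kinesins, docked at the active zone, fused with the membrane by SNARE proteins and retrieved by endocytosis. Dense-core vesicles carry processed neuropeptides along a related route. MAB-9 is known from C. elegans genetics for roles in the hindgut, in the male tail and in motor neurons.

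The sequences around 7 summits are shown because they span the kinds of site found at these genes: starts, distal upstream sequence and introns. Each is 121 bp of the ce11 build, plus strand, centred on the main summit, from the RefSeq assembly of that build. Capitals mark the repeat GAGAGA, the T-box pattern GTGTGA or the E-box CACGTG, read on either strand, so that GAGAGA appears as TCTCTC where it lies on the minus strand.
ida-1 start, chrIII:5755360-5755480: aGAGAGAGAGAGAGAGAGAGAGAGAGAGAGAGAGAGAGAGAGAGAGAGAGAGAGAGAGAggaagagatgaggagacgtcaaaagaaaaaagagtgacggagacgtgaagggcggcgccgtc
ida-1 intron, chrIII:5758768-5758888: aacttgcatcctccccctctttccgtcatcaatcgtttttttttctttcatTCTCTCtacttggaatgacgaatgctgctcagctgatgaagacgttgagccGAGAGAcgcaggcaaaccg
unc-64 upstream, chrIII:13275919-13276039: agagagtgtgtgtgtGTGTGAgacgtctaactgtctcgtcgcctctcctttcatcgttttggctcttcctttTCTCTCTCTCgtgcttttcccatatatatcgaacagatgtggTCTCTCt
unc-16 start, chrIII:9546124-9546244: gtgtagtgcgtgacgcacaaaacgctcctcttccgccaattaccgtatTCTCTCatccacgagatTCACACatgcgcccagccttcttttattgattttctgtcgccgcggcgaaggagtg
rab-3 internal start, chrII:5725235-5725355: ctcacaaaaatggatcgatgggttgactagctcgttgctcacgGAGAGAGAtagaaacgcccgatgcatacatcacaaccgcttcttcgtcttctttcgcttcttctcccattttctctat
cab-1 intron, chrX:12204541-12204661: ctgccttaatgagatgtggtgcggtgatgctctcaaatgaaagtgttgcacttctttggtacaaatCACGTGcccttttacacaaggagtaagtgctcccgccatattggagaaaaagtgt
unc-26 intron, chrIV:13263008-13263128: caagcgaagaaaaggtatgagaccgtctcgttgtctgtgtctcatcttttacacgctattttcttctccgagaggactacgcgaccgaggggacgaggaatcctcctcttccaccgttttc
At the ida-1 start an alternating GA run fills the first 60 bp of the window. It is the longest such run within the 121 bp windows of the 16 main summits of these genes. The window cuts this run, as its repeats of GAGAGA began at least 83 bp before the summit. The unc-26 window holds none of the marked patterns.

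Of the 36 genes, 12 (33.3%) had a summit in the main list, against 1548 of 19973 protein-coding genes (7.75%). They were unc-64, unc-13, rab-3, unc-10, unc-26, ida-1, ric-19, cab-1, unc-104, unc-16, tba-1 and maco-1, so each functional class below was represented. The signals at these genes were modest. Their strongest main peaks had a median of 79.6, from 65.4 to 254, against a median of 112 for the strongest main peaks of all 1548 genes with a summit. Of the 12, the peaks of unc-64, ida-1, cab-1, unc-16 and tba-1 reached the median of the main list, 98.7. These are 5 of the 36, against 4.64% of all genes. Long genes offer more sequence in which a summit can lie, and the windows of the 36 genes had a median length of 8987 bp, against 4027 bp for all genes. Among windows of 10000 bp and over, 8 of 17 members (47.1%) had a main summit, against 17.5% of all genes with such windows. Among windows from 5000 to under 10000 bp, 3 of 15 members had one, against 10.1% of all such genes, and under 5000 bp 1 of 4 did, against 5.80%. A window of equal length for every gene was also used, which began 2000 bp before the first start and ended 250 bp past it. There 9 members had a main summit, against 6.38% of all genes. Up to the start alone, 8 members had one, against 6.12%. When the full window began 1000 bp upstream instead, 7 members had a summit, against 6.26%. More than 1 main summit lay at 3 members, ida-1, unc-104 and unc-16, against 0.816% of all genes. At unc-104 and unc-16 the further summit was that of a weak peak overlapping the strongest one. The other pooled list held a summit at 10 members (27.8%), against 1598 of the 19973 genes. Either pooled list held a summit at 14 members, egl-3 and ric-7 being the further ones, against 8.71%. No test was made of these shares, because the list was drawn up with results of these data known.

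**Figure D1:**
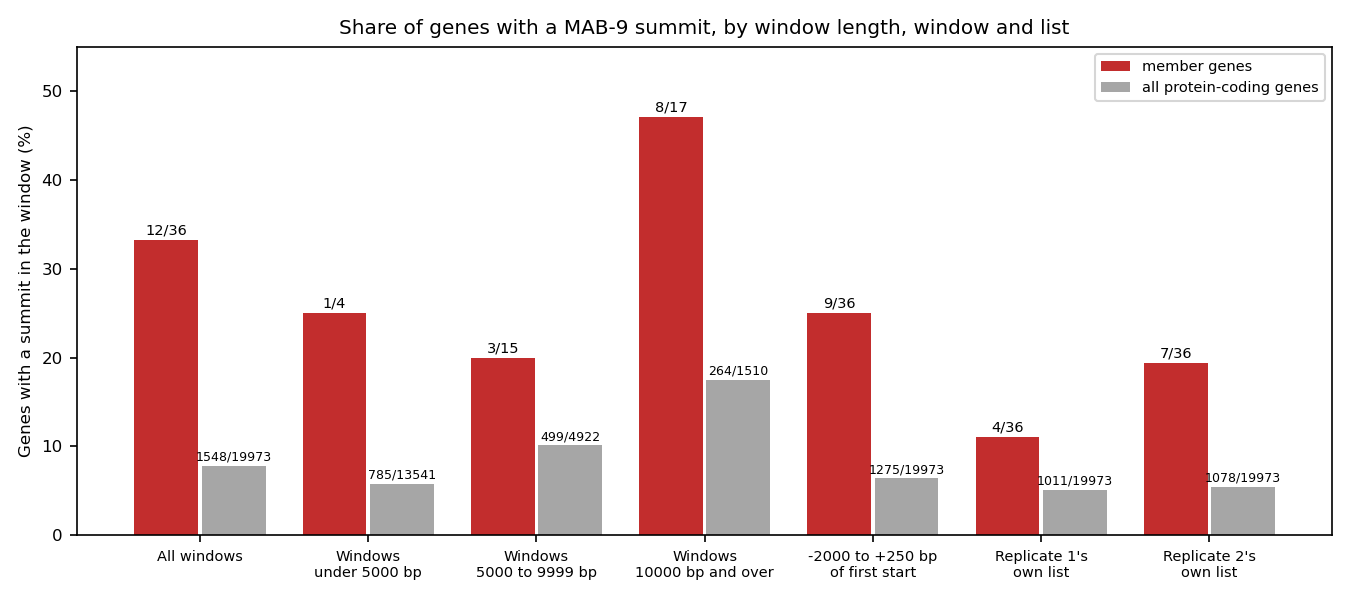
Percentage of genes with a summit, for the 36 member genes (red) and all protein-coding genes (grey), with the counts above each bar. The first 5 pairs of bars use the main list and the last 2 use each replicate's own thresholded list over the full window. Member bars are higher in every pair, and both kinds of gene have their highest share among windows of 10000 bp and over.

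Support by replicate was thinner. A peak was called supported in a replicate when it overlapped a peak of that replicate's thresholded list by at least 50% of the shorter peak. Of the 12 strongest main peaks, those of unc-64 and tba-1 (2 of 12) were supported in both replicates, those of ida-1 and cab-1 in replicate 1 only, and those of unc-16 and maco-1 in replicate 2 only. The remaining 6 of 12 were supported in neither, against 34.4% of all 1431 main peaks, and 16.7% were supported in both, against 39.1% of all main peaks. All main peaks include weaker peaks of the same gene. Counted by gene, the strongest main peak was supported in both replicates at 760 of the 1548 genes with a main summit. Members with a strongest main peak supported in both replicates made up 5.56% of the 36, against 3.81% of all genes. These were the 2 genes unc-64 and tba-1, and the tba-1 summit lay 28 bp from the start of cox-5B. Counted from replicate 1's own thresholded list, 4 of 36 members had a summit, against 5.06% of all genes. Replicate 2's own list gave 7 members (19.4%), against 5.40%. In the windows of 10000 bp and over, replicate 1's list held summits at 2 of 17 members (11.8%), against 10.6% of all such genes, and replicate 2's at 4 of 17 (23.5%), against 11.6%. Between 5000 and 10000 bp, the lists held summits at 1 of 15 members in replicate 1, against 6.52% of all such genes, and at 2 of 15 in replicate 2, against 7.15%. Under 5000 bp each list named 1 of 4, tba-1, against 3.91% in replicate 1 and 4.07% in replicate 2. Around the first start, replicate 1's list held 3 members, against 4.25% of all genes, and replicate 2's held 5, against 4.61%. In replicate 1's list the long members were thus near the background of long genes.

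**Figure D2:**
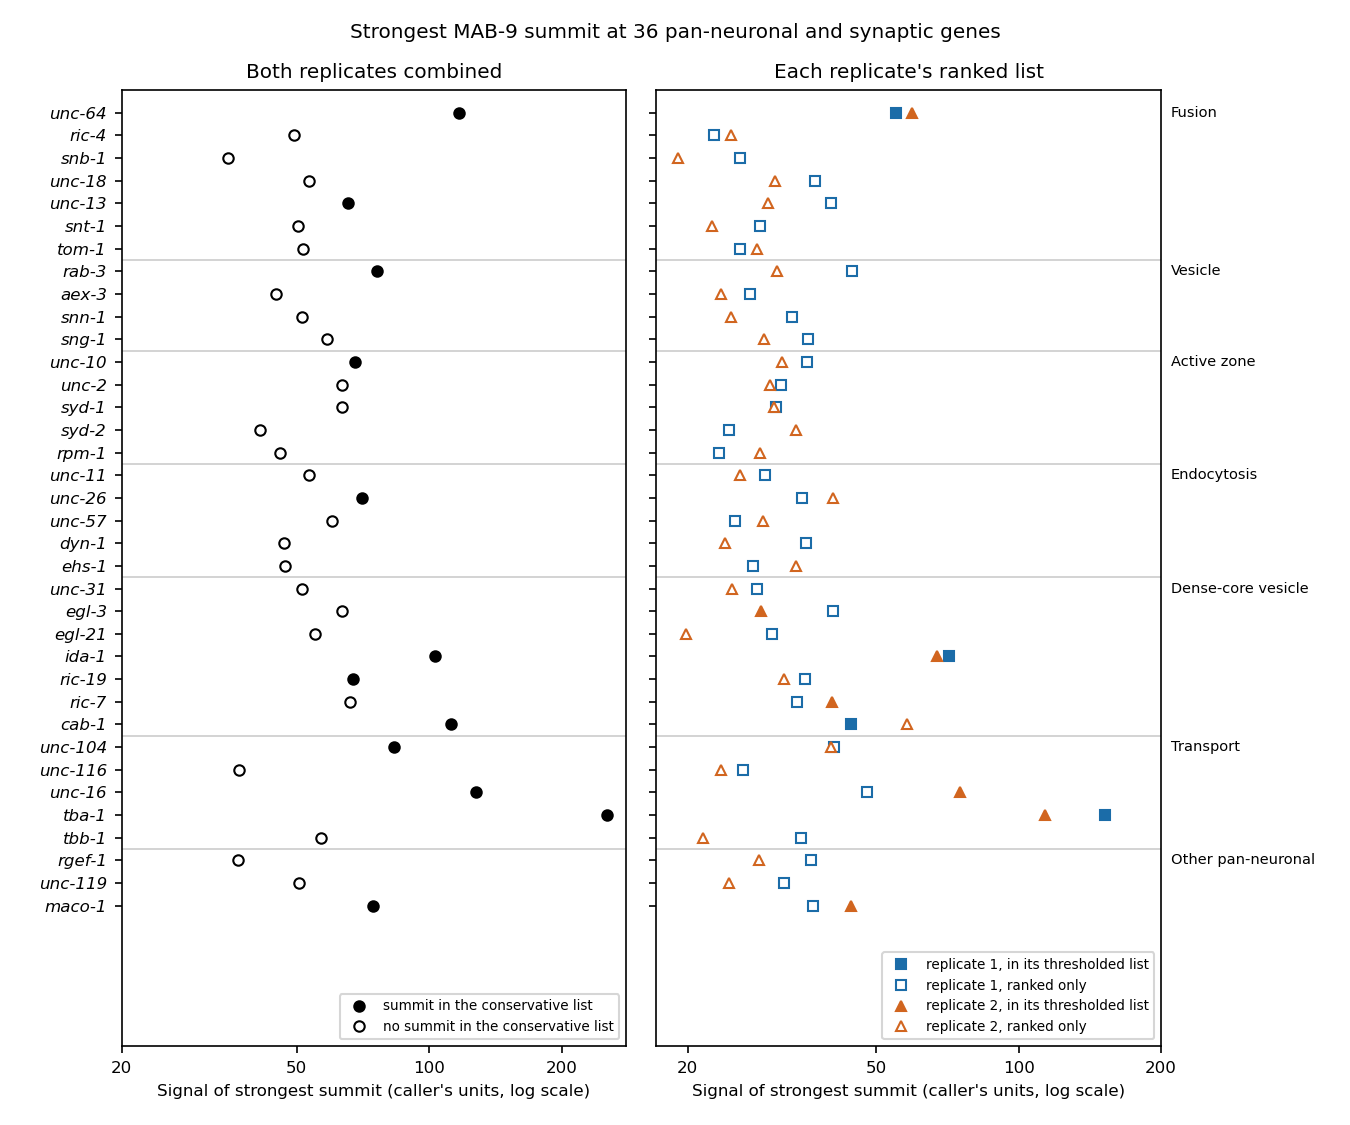
Signal of the strongest summit at each of the 36 genes (rows, grouped by function) on a log scale, in the pooled ranked list (left) and in each replicate's ranked list (right, squares for replicate 1 and triangles for replicate 2). Filled symbols mark genes with a summit in the main list (left) or in that replicate's thresholded list (right). The tba-1 values stand apart at the right of both panels, and most other genes lie between 20 and 60 in the replicates.

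Among the 7 genes of the fusion machinery, unc-64 and unc-13 had a main summit. At unc-64 (WBGene00006798), which encodes the membrane SNARE syntaxin, the peak on chromosome III from 13275819 to 13276138 had a signal of 117 and ranked 528 of 1431. Its signal was 54.96 in replicate 1 and 59.6 in replicate 2, and the summit lay 1279 bp upstream of the first start. Both replicates' thresholded lists held the peak. At unc-13 (WBGene00006752), whose product primes vesicles for fusion, the peak on chromosome I from 7421168 to 7421487 had a signal of 65.4, the lowest of the 12. It lay 1457 bp upstream of the first start, with 40.2 in replicate 1 and 28.4 in replicate 2. Neither replicate's thresholded list nor the other pooled list held it.

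The other 5 fusion genes had no main summit, and their strongest ranked signals ran from 22.7 to 37.1 in replicate 1 and from 19.04 to 30.5 in replicate 2. For comparison, the strongest ranked summit of a gene had a median of 25.2 over all protein-coding genes with one in replicate 1 and 19.9 in replicate 2. Over genes with windows from 5000 to under 10000 bp, as at unc-18 and snt-1, the medians were 27.8 and 21.9. Over those with windows of 10000 bp and over, as at ric-4 and tom-1, they were 32.8 and 26.5. At ric-4, the plasma membrane SNARE of the SNAP family, the strongest summits lay 7724 bp after the first start in replicate 1 (22.7) and 7667 bp after it in replicate 2 (24.6), at the same site near an internal start. For snb-1, which encodes the vesicle SNARE synaptobrevin, they lay in an exon 473 bp after the start (25.8) and 5 bp before it (19.04). At unc-18, a syntaxin-binding protein, both lay in the promoter, 133 bp (37.1) and 349 bp (30.5) upstream. The calcium sensor gene snt-1, encoding synaptotagmin, had intronic summits at 3686 bp (28.4) and 1734 bp (22.5). The gene tom-1, encoding tomosyn, an inhibitor of SNARE assembly, had them at 13423 bp (25.8), near an internal start, and in an intron at 4521 bp (28.1). Of these 5 genes only ric-4 had its strongest peak at the same site in both replicates.

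Of 4 synaptic vesicle genes, rab-3 had a main summit. The rab-3 gene (WBGene00004267) encodes the small GTPase of synaptic vesicles. Its peak on chromosome II from 5725135 to 5725454 had a signal of 76.1, with 44.4 in replicate 1 and 30.9 in replicate 2. The summit lay 2558 bp after the first start but 565 bp upstream of an internal start. The other pooled list held this peak and neither thresholded list of a replicate did. No main summit was found at aex-3, which encodes the exchange factor of RAB-3, at snn-1 (synapsin) or at sng-1 (synaptogyrin). The strongest aex-3 summits were intronic, at 5276 bp in replicate 1 (27.1) and 6639 bp in replicate 2 (23.5). Those of snn-1 were intronic too, at 9726 bp (33.2) and 9006 bp (24.7). For sng-1 they lay in an intron at 855 bp in replicate 1 (35.8) and in the promoter, 386 bp upstream, in replicate 2 (29.0). None of these 3 genes had its strongest peak at the same site in both replicates.

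Among 5 active zone genes only unc-10 had a main summit. It encodes RIM, a scaffold that links vesicles to calcium channels (WBGene00006750). The peak on chromosome X from 7281336 to 7281655 had a signal of 67.9, with 35.8 in replicate 1 and 31.7 in replicate 2, and lay 1174 bp upstream of the first start. Like the unc-13 peak, it was in no other thresholded list. At unc-2, the presynaptic calcium channel gene with the longest window of all members (54607 bp), the strongest summits lay at the same intronic site, 13497 bp (31.5) and 13404 bp (29.9) after the first start. The RhoGAP-like gene syd-1 also had its strongest summits at 1 intronic site, at 1668 bp (30.8) and 1555 bp (30.4). For syd-2, encoding liprin-alpha, they lay 47 bp (24.5) and 515 bp (33.8) upstream, and for the ubiquitin ligase gene rpm-1 in exons at 8552 bp (23.3) and 13132 bp (28.4). The unc-2 site had an irreproducible discovery rate of 0.0220 in the pooled ranked list, above the 0.01 that peaks of the main list stay within.

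Of 5 endocytosis genes, unc-26 had a main summit. It encodes synaptojanin, a phosphoinositide phosphatase (WBGene00006763). The peak on chromosome IV from 13262908 to 13263227 had a signal of 70.5, with 34.9 in replicate 1 and 40.5 in replicate 2. It was an intronic site 9448 bp after the first start, towards the gene's end, and the nearest protein-coding start was that of JC8.16, 3896 bp away. No other thresholded list held this peak. The clathrin adaptor and endophilin genes had promoter or upstream summits at the same site in both replicates, unc-11 (AP180) at 991 bp (29.2) and 927 bp (25.8) upstream, and unc-57 (endophilin) at 1049 bp (25.2) and 1169 bp (28.8) upstream. The dynamin gene dyn-1 had its strongest summits 770 bp (35.5) and 452 bp (23.9) upstream. The gene ehs-1, which encodes an EH-domain protein of endocytosis, had them 138 bp downstream (27.4) and 826 bp upstream (33.9). These 4 genes were in none of the thresholded lists.

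The dense-core vesicle and neuropeptide class had 3 of 7 genes with a main summit, ida-1, ric-19 and cab-1. The ida-1 gene (WBGene00002048) encodes a tyrosine phosphatase-like protein of dense-core vesicles, and it had 3 main summits. The strongest peak, on chromosome III from 5755260 to 5755579, had a signal of 103, and its summit lay in the promoter just before the single annotated start. It reached 71.2 in replicate 1 and 30.04 in replicate 2, the largest log2 difference between deposited values among the 12, and only replicate 1's thresholded list held it. The next, from 5758668 to 5758987, lay in an intron 3289 bp after the start, with a signal of 95.4. Its signal was 37.2 in replicate 1 and 67.1 in replicate 2, and only replicate 2's thresholded list held the peak. Each replicate's own list thus named ida-1 through a different site. A noncoding RNA gene, B0244.14, lay within 200 bp of the summit at the start.

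At cab-1 (WBGene00000277), which encodes a protein that binds AEX-3, the peak on chromosome X from 12204441 to 12204760 had a signal of 112. Its signal was 44.3 in replicate 1 and 58.2 in replicate 2, and yet only replicate 1's thresholded list held it. In replicate 2 the irreproducible discovery rate at this site was 0.490, although its signal ranked 544 there. The summit lay in an intron, 8300 bp after the first start and 1031 bp after an internal one. At ric-19 (WBGene00004368), the homolog of the mammalian islet autoantigen ICA69, the peak on chromosome I from 3781476 to 3781795 had a signal of 67.2, with 35.3 in replicate 1 and 31.9 in replicate 2. It lay 54 bp after the start, also within 2000 bp upstream of pmlr-1 or in that gene, and was in no other thresholded list.

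The other 4 genes of this class had no main summit, but 2 of them were in another thresholded list. At egl-3, the proprotein convertase that cuts neuropeptide precursors (WBGene00001172), the other pooled list held a peak with a signal of 63.5, 1080 bp upstream of the first start. Replicate 2's thresholded list held peaks 960 bp (28.5) and 1173 bp (11.5) upstream, and the strongest summit in replicate 1's ranked list lay 1080 bp upstream with 40.5. In the pooled ranked list that contains the main list, the peak 1080 bp upstream had an irreproducible discovery rate of 0.687. At ric-7 (WBGene00010259), which is needed for neuropeptide release and for mitochondria in axons, the other pooled list held an intronic peak with a signal of 66.1, 2099 bp after the first start. Replicate 2's thresholded list held it too, with 40.3 at 2176 bp. Its irreproducible discovery rate in the pooled ranked list that contains the main list was 0.0109, just above 0.01. In replicate 1 the strongest ric-7 summit lay elsewhere, 1029 bp upstream (33.9). The gene egl-21, encoding the carboxypeptidase that trims neuropeptides, had both strongest summits in its promoter, 117 bp (30.1) and 112 bp (19.8) upstream. At unc-31, which encodes the dense-core vesicle priming factor CAPS, they lay at 5316 bp in an intron (27.9) and at 13376 bp near an internal start (24.8).

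Transport and tubulin genes held the 2 strongest peaks of the set, at tba-1 and unc-16. With unc-104, 3 of the 5 genes had a main summit. The tba-1 gene (WBGene00006528) encodes an alpha tubulin. Its peak on chromosome I from 9788624 to 9788763 had a signal of 254, rank 126 of 1431, with 152 in replicate 1 and 114 in replicate 2, and all thresholded lists held it. The summit lay 1073 bp upstream of tba-1 but 28 bp from the start of cox-5B, a cytochrome c oxidase subunit gene, so it was assigned to tba-1 only through the 2000 bp window. At unc-16 (WBGene00006755), which encodes a kinesin adaptor of the JIP family, the peak on chromosome III from 9546024 to 9546343 had a signal of 128, with 47.8 in replicate 1 and 75.2 in replicate 2. Its summit lay 74 bp upstream of the first start and within 200 bp of the noncoding RNA gene ZK1098.13, and replicate 2's thresholded list held it. At unc-104 (WBGene00006831), the kinesin of synaptic vesicle precursors, the peak on chromosome II from 6992916 to 6993235 had a signal of 83.2. It had 40.8 in replicate 1 and 40.1 in replicate 2, and lay 1911 bp upstream of the first start, close to the far edge of the window. The other pooled list held it, and neither replicate's thresholded list did. No main summit was found at unc-116, the conventional kinesin heavy chain gene, or at the beta tubulin gene tbb-1. The strongest unc-116 summits lay in an exon at 916 bp (26.2) in replicate 1 and 1564 bp upstream (23.5) in replicate 2. Those of tbb-1 lay 289 bp upstream (34.7) and in an exon at 328 bp (21.5).

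Of the remaining 3 genes, maco-1 had a main summit. It encodes macoilin, a transmembrane protein of neurons (WBGene00017066). The peak on chromosome I from 6607878 to 6608197 had a signal of 74.5, with 36.8 in replicate 1 and 44.2 in replicate 2, and lay 518 bp upstream of the start. Replicate 2's thresholded list and the other pooled list held it. The 2 genes without a main summit are both widely used as pan-neuronal markers. At rgef-1, encoding a Ras exchange factor, the strongest summits lay in an exon at 3239 bp (36.3) in replicate 1 and 186 bp upstream (28.2) in replicate 2. At unc-119, encoding a lipid-binding chaperone, they lay 991 bp upstream (31.9) and in an intron at 653 bp (24.4). Neither gene had its strongest peak at the same site in both replicates.

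**Figure D3:**
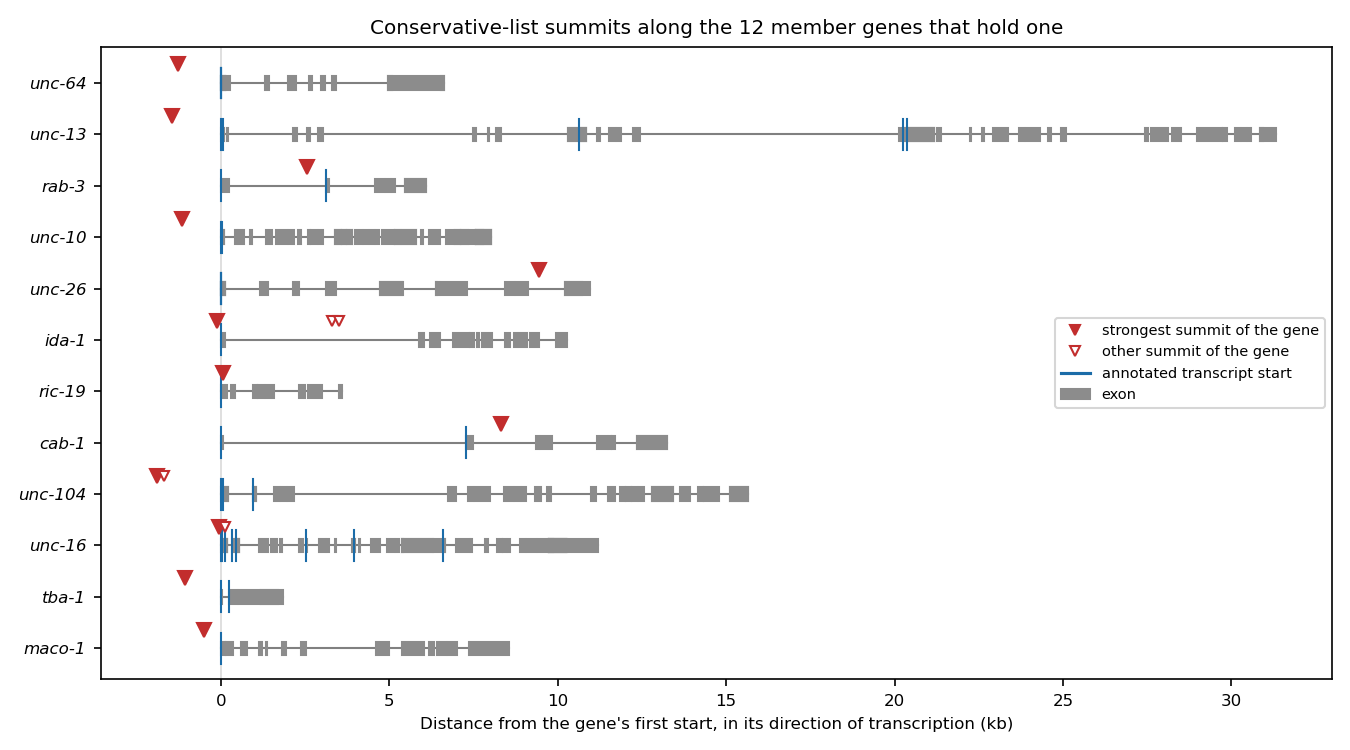
Positions of all 16 main summits (triangles, filled for the strongest of each gene) along the 12 genes that hold one, with exons as grey boxes and annotated starts as blue lines. The axis is the distance in kb from each gene's first start. Of the strongest summits, 8 lie upstream of the first start and 4 after it.

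The strongest main summits of the 12 genes were compared by position with those of all 1548 genes that had one. A promoter here begins 1000 bp before any annotated start of the gene and ends 250 bp past it. By that rule 5 of the 12 lay in a promoter (rab-3, ida-1, ric-19, unc-16 and maco-1), 5 lay farther upstream (unc-64, unc-13, unc-10, unc-104 and tba-1), 2 were intronic (unc-26 and cab-1) and 0 were exonic. Of the 1548 genes, 65.4% had it in a promoter, 20.3% farther upstream, 10.8% in an intron and 3.42% in an exon. The summit lay upstream of the first start at 8 of the 12, against 77.8% of the 1548. The 5 distal upstream summits lay from 1073 to 1911 bp before the first start. Own starts were the nearest protein-coding starts at 10 of the 12, with tba-1 and unc-26 as the exceptions, against 63.1% of the 1548. With genes assigned by the nearest start within 2000 bp, the same 10 members (27.8%) were bound, against 4.99% of all genes.

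The replicates' deposited signals at these peaks differed in both directions. The log2 ratio of replicate 2 to replicate 1 averaged -0.12 ± 0.51 (SD over 12 peaks), and the same ratio averaged -0.19 ± 0.44 over the 1346 main peaks matched in both. The ratio was highest at unc-16, with 0.65, and lowest at ida-1, with -1.25. Replicate 1's value was the higher at 7 of the 12 (58.3%), against 68.1% of all matched main peaks. Across peaks the signals of the replicates had a Spearman correlation of 0.33 over the 12 member peaks, against 0.69 over the 1346, as a description over peaks that share the same libraries. The Pearson correlation of the log2 signals was 0.66 over the 12 and 0.82 over the 1346. Over all 36 genes, the strongest ranked peaks of both replicates fell on the same site at 16 (44.4%), against 27.5% of all protein-coding genes. Among the 24 genes without a main summit this was so at 7, a share near the 27.5% of all protein-coding genes. The 7 were ric-4, unc-2, syd-1, unc-11, unc-57, egl-3 and egl-21. The median of the strongest ranked signal over the 36 genes was 34.3 in replicate 1, against 25.2 over all genes, and 29.3 in replicate 2, against 19.9. Among windows of 10000 bp and over the medians were nearer, 33.9 for members against 32.8 for all such genes in replicate 1 and 30.4 against 26.5 in replicate 2.

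**Figure D4:**
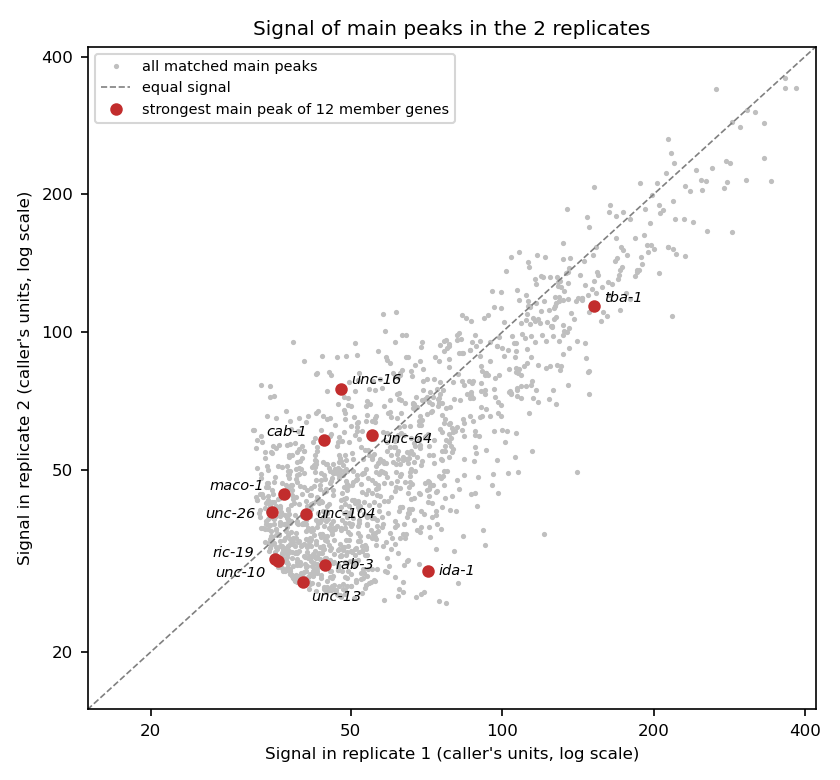
Signal in replicate 2 against replicate 1, both on log scales, for the strongest main peak of the 12 member genes (red) and for the 1346 main peaks matched in both replicates (grey). The dashed line marks equal signal. Most members sit at the low end of the cloud, tba-1 lies higher, and ida-1 lies below the line at 71.2 and 30.04.

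The 201 bp around each summit were searched on both strands for the T-box core AGGTGT and for GGTGTG and GTGTGA, which can overlap it. The repeat GAGAGA, the E-box CACGTG, the GATA pattern TGATAA and the palindromic site of the neuronal COE factors were searched too. AGGTGT lay in 0 of the 12 member windows, against 4.96% of all 1431 main windows. GGTGTG lay in 1, at ric-19 (7.62% of main windows), and GTGTGA in 2, at unc-64 and unc-16 (10.7%). The repeat GAGAGA was the most common, in 9 of 12 windows (75%), against 37.7% of all main windows. Those 9 were unc-64, unc-13, rab-3, unc-10, ida-1, ric-19, unc-104, unc-16 and maco-1. CACGTG lay in 1 window, at cab-1 (7.20% of main windows). The COE site and TGATAA lay in 0 of 12, against 0.839% and 8.39% of main windows. The member windows had a median GC content of 49.8%, from 45.3 to 54.7%, against 44.8% over main windows. A match or its absence in these windows is a description of the letters and says nothing of which factor was bound.

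Other genes of the same processes were counted in 7 lists that leave out the 36 members. Of 129 such genes, 33 (25.6%) had a main summit, against 7.75% of all protein-coding genes. The median window of the 129 was 7781 bp, and of all genes with windows from 5000 to under 10000 bp 10.1% had a main summit. G protein and second messenger genes that control release had the highest share of the 7 lists, with 9 of 15. Their median window was 9554 bp, and in the fixed window around the first start 5 of 15 had a main summit, against 6.38% of all genes. The 9 were led by egl-30, the Gq alpha subunit gene, with a signal of 448 (211 in replicate 1 and 223 in replicate 2) 63 bp upstream of its start. Next came gsa-1, the Gs alpha subunit gene, with 182 (92.3 and 80.6), although its summit lay nearest to the start of vps-4. Then followed eat-16, a regulator of G protein signalling, with 126 (86.6 and 44.2), where ceh-5 had the nearest start. Further summits of this list also lay nearest to the starts of other genes, F55C7.2 and emb-5. The lists of other endocytosis genes had 5 of 15, led by the adaptor gene apb-1 with 216 (148 and 81.6), rab-5 with 123 (61.9 and 64.8) and dpy-23 with 115.3 (76.8 and 43.5). Dense-core vesicle and neuropeptide genes had 5 of 17, with unc-108 (a RAB-2 GTPase) at 112, ric-8 at 107 and pkc-1 at 79.1. The nearest starts to the ric-8 and pkc-1 summits were those of mdf-2 and F10C2.3.

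Axonal transport and cytoskeleton genes also had 9, of 31, among them the alpha tubulin gene tba-2 at 181 (90.3 and 88.9), the kinesin light chain gene klc-1 at 166 (83.5 and 90.0) and klp-6 at 145 (79.5 and 61.9). All 3 peaks were in both replicates' thresholded lists. Active zone genes had 2 of 18, dlk-1 (94.8) and sad-1 (75.8), both kinase genes. Genes of transmitter synthesis and uptake also had 2 of 18, the serotonin transporter gene mod-5 at 248 (137 and 110), through an intronic summit nearest to the start of Y54E10BR.2, and unc-25, the GABA synthesis gene, at 73.7 (33.1 and 47.9). Among 15 other fusion genes 1 (6.67%) had a main summit, against 10.1% of all genes with windows from 5000 to under 10000 bp. It was snt-2, a synaptotagmin gene (75.8), with the summit in an intron nearest to the start of ppm-1.G. The median windows of these lists ran from 5833 bp for fusion genes to 13303 bp for active zone genes.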

How the data were processed

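Peak lists were used as the authors deposited them, from 2 biological replicates in 1 group. The labels give the build as ce11. Alignments of the replicates and a control went into the lists, per the file headers. The aligner and caller were not given in the sources used here. In the deposited lists the signal is the caller's value per peak. The ranked lists give the −log10 of each peak's irreproducible discovery rate, as the authors deposited it. Peaks of the main list and of both replicates' thresholded lists have a rate of at most 0.01.

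Gene models came from Ensembl release 115 (WBcel235, the same build), with mitochondrial genes left out, and sequence from RefSeq. All 36 names matched. A replicate's signal at a main peak is that of the ranked peak overlapping it by 50% of the shorter peak with the nearest summit. Noncoding RNA genes within 200 bp were looked up without piRNA genes and pseudogenes.

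The members, the lists and the rules were chosen with earlier results of these data known, so no test was made over them. Every member is named, and up to 3 genes of each other list with the highest signal. Of 130 other names, 1 (rab-27) matched no gene. With 2 replicates, spread is given as both values. Code was tested on simulated data. Python 3.11.15, NumPy 2.4.6 and matplotlib 3.10.9 were used.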

Additional observations from a re-analysis of the deposited data

How the results depend on the processing

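The count of 12 members with a main summit was 10 in the other pooled list (against 1598 of 19973 genes), and from 4 to 7 when a replicate was left out and the other's own list was used. It was 5 with main peaks at or above the median signal and 7 when the window began 1000 bp upstream, against 4.64% and 6.26% of all genes. The shorter window loses the 5 distal upstream summits. The fixed window around the start, the upstream window alone, the nearest-start rule and any base of the peak gave from 8 to 12. The 2 members supported in both replicates stayed 2 under each overlap and threshold tried. With windows of 50 bp to either side, GGTGTG lay in 0 member windows, against 4.61% of main windows, and GAGAGA in 7, against 25.1%. The 33 of 129 other genes were 34 in the other pooled list, against the same 1598 of 19973 genes. They were 23 in replicate 1's own list, against 5.06% of all genes, and 22 in replicate 2's, against 5.40%. In the fixed window around the first start, 22 of the 129 had a main summit, against 6.38% of all genes. No paired analysis was possible because there is 1 group. With no read counts, precision at a single site cannot be given.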

Other observations

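At 3 of the 12 genes the main list held a weak peak beside a strong one. At unc-104 a peak with a signal of 5.13 (rank 1419 of 1431) overlapped the peak of 83.2, with summits 204 bp apart and irreproducible discovery rates of 0.00348 and 0.00349. At ida-1 a peak of 9.56 overlapped the intronic peak of 95.4, with summits 202 bp apart and rates of 0.00303 and 0.00302. At unc-16 a peak of 27.8 overlapped the peak of 128, with summits 201 bp apart and rates of 0.000984 and 0.000988. In the whole main list 71 peaks (4.96%) overlapped a stronger main peak, with a median signal of 12.8, against 101.4 for the other 1360, and they held 68 of the last 100 ranks. Such pairs raise the number of summits at a gene and not the number of genes.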
